A study of Mus musculus with 6 samples.

Results

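Olfactory receptors are G-protein-coupled receptors that bind odorants in the cilia of olfactory sensory neurons. They form the largest gene family of the mouse genome, most of them in clusters, with a coding region that is free of introns. In the nose each sensory neuron uses a single receptor gene, and the others are held in silent chromatin. In cells outside the nose most receptor genes are silent, although some receptors, such as the azelaic acid receptor Olfr544, have reported roles in other tissues. Tet1, Tet2 and Tet3 oxidise 5-methylcytosine in DNA, a step that leads to the removal of methylation.

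The olfactory receptor genes that gave a signal in mouse embryonic stem cells were taken from 6 one-colour Agilent arrays, 3 of wild-type cells (WT) and 3 of cells in which Tet1, Tet2 and Tet3 had been knocked out (TKO). The WT line was BJ FF2, and the knockout had been made in it. All cells were kept in 2i medium on feeder cells, which were removed before the cells went onto matrigel, and the RNA of each sample came from 1 dish. The dishes of a group are thus from 1 line, so that p-values measure the spread between dishes and not between lines or clones, and the labels do not give how many clones the TKO cells came from or which exons were altered. A probe counted as detected on an array when most of its spots carried the scanner software's flag for a signal well above background. The members were chosen by these flags: a gene whose name begins with Olfr and a number was a member when 1 of its probes was detected on 3 or more arrays, in either group or across both. This gave 61 probes for 61 genes, out of 1193 olfactory receptor probes for 1098 gene names on the array. The same rule kept 30730 of all 55681 probes.

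Of the targeted genes, Tet1 and Tet2 fell. The 3 Tet1 probes differed by -1.17 to -1.37 on the log2 scale, 2 of the 3 Tet2 probes by -2.94 and -3.24, and the third Tet2 probe by -0.44 ± 0.19 (SE; adjusted p = 0.107). The 1 Tet3 probe that passed the filter differed by -0.24 ± 0.10 (SE; adjusted p = 0.0845), and no Tet3 probe passed the threshold. The 3 WT arrays and TKO array 1 lay in the first row of the slide and TKO arrays 2 and 3 in the second, so that row and genotype overlap in part. Negative control spots were flagged as well above background at 0% to 0.649% of 308 spots on the row 1 arrays and at 2.27% and 2.6% on the row 2 arrays. The lowest signal that still carried the flag was -5.31 to -4.97 on the row 1 arrays and -4.25 and -4.37 on TKO arrays 2 and 3, on a log2 scale with 0 at the 75th percentile of each array, which is the scale of every level given here. A level near -5 could therefore be flagged on a row 1 array and not on a row 2 array.

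With 3 arrays a group, no difference between the genotypes in the share of olfactory receptor probes well above background could be shown. The share of the 1193 olfactory receptor probes that was well above background was 6.04%, 7.71% and 5.7% on the WT arrays (72, 92 and 68 probes) and 7.29%, 7.12% and 6.87% on the TKO arrays (87, 85 and 82 probes). The groups overlapped. The mean was 6.48% ± 1.08 (SD, n = 3) in WT and 7.1% ± 0.211 (SD, n = 3) in TKO, a difference of 0.615 percentage points (exact permutation test, two-sided, p = 0.4, where 3 arrays against 3 cannot give less than 0.1). Over all 55681 probes the share was 53.9% to 57.6% in WT and 50.9% to 56.7% in TKO. The direction of the olfactory receptor difference depended on what counted as detected. With the scanner software's weaker flag, for a signal that is positive and significant against background, the shares were 34.7%, 44.8% and 35.3% in WT and 39.5%, 22.8% and 24.7% in TKO, a difference of -9.28 points (exact permutation p = 0.3). TKO array 1, in the row of the WT arrays, lay within the WT range by this flag, and the arrays below that range were both in row 2. A limit at the 95th percentile of the negative controls gave -10.4 points (exact permutation p = 0.3).

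Other chemoreceptor families had shares of the same order. Vomeronasal type 1 receptors, the pheromone receptors of the vomeronasal organ's apical layer, were detected at 9.5%, 10.6% and 8.38% of 179 probes in WT and at 7.82%, 7.26% and 6.7% in TKO. These groups did not overlap, and the difference of -2.23 points had the smallest p the design allows (exact permutation p = 0.1). Vomeronasal type 2 receptors ranged from 5.74% to 6.56% of 122 probes in WT and from 4.92% to 7.38% in TKO. Taste receptors ranged from 12.5% to 15% of 40 probes in WT and from 10% to 15% in TKO. Of the 15 probes for trace amine receptors, which serve as a further set of olfactory receptors, 1 was detected on 1 array (TKO array 2) and the rest on none.

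**Figure D1:**
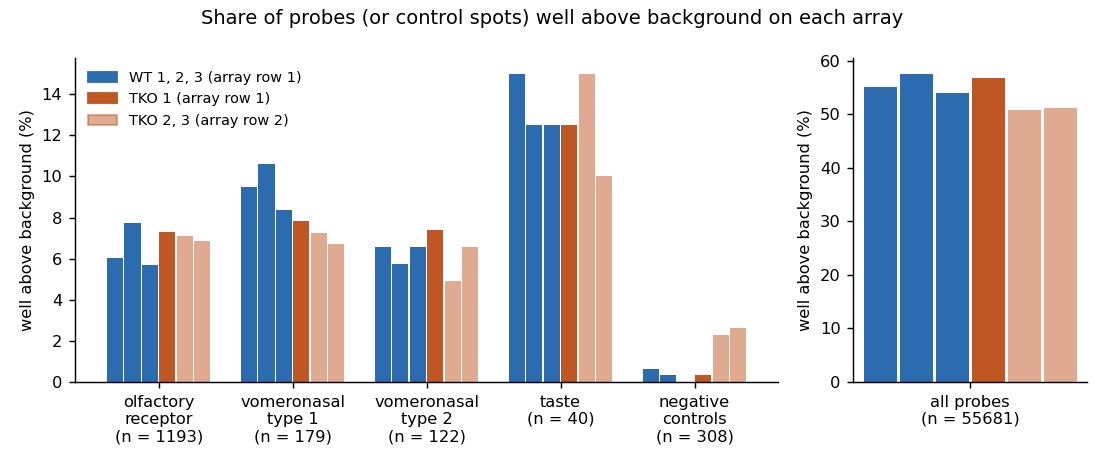
Share of probes well above background on each array, in percent, for olfactory receptors, other chemoreceptor families and negative control spots (left) and for all probes (right, on its own axis). Each bar is 1 array, WT in blue and TKO in orange with the row 2 arrays paler; olfactory receptor bars run from 5.7% to 7.71% with overlapping groups, and the negative control bars of TKO arrays 2 and 3 stand at 2.27% and 2.6%.

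Most olfactory receptor probes were detected nowhere, and a small set was detected everywhere. Of the 1193 probes, 978 were detected on 0 arrays, 141 on 1 array, 13 on 2, 6 on 3, 12 on 4, 5 on 5 and 38 on all 6. The 141 probes seen once were spread unevenly, 9, 22 and 10 of them on WT arrays 1 to 3 and 22, 39 and 39 on TKO arrays 1 to 3. The median level of the 978 undetected probes was -7.29 to -7.01 on the row 1 arrays and -6.33 and -6.45 on TKO arrays 2 and 3. Members at the limit of the rule, on exactly 3 arrays, had mean levels from -4.95 to -4.51, and the probes just outside it, on exactly 2 arrays, had mean levels from -5.35 to -4.82. All 3 WT arrays detected 53 olfactory receptor probes and all 3 TKO arrays 39, with 38 in both sets. Detected on all 3 WT arrays and on no TKO array were 2 probes, Olfr965 and Olfr458, and 0 showed the reverse; over all probes on the array these counts were 666 and 343. In Olfr458 the flags differed while the levels overlapped, at -4.94, -4.63 and -4.44 in WT and -5.36, -4.41 and -4.55 in TKO (-0.10 ± 0.28 SE; limma adjusted p = 0.78). Slide row moved with this count: 8 members were detected on all 4 row 1 arrays and on no row 2 array, 12 were detected on TKO array 1 but not on TKO arrays 2 and 3, and 1, Olfr1198, was detected on TKO array 2 but not on TKO arrays 1 and 3. The part of slide row in these counts was not tested.

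The 61 members came from across the family rather than from 1 cluster. RefSeq matched all 61 symbols, 59 of them as protein-coding genes and 2 as transcribed pseudogenes, Olfr1372-ps1 and Olfr75-ps1. Class I receptors, the fish-like receptors that lie together on chromosome 7, gave 6 members of 137 probes (4.38%), and class II receptors gave 54 of 1024 (5.27%), with the class taken from older receptor names in RefSeq and 1 member in neither. By mm9 position in the files the members lay on 15 chromosomes, with 16 on chromosome 7, 12 on chromosome 2, 6 on chromosome 9 and 5 each on chromosomes 11 and 17. Their probes had a median GC content of 45%, against 40% in the other olfactory receptor probes.

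Most members gave a dim signal. The median of their mean levels was -3.64, against -0.69 over all 30730 probes tested, and 42 of the 61 lay under -3. Brightness differs between probes for reasons other than the amount of transcript, so a brighter probe does not show a more abundant receptor. Only Olfr544 and Olfr1229 had a mean level above the 75th percentile of the array.

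**Figure D2:**
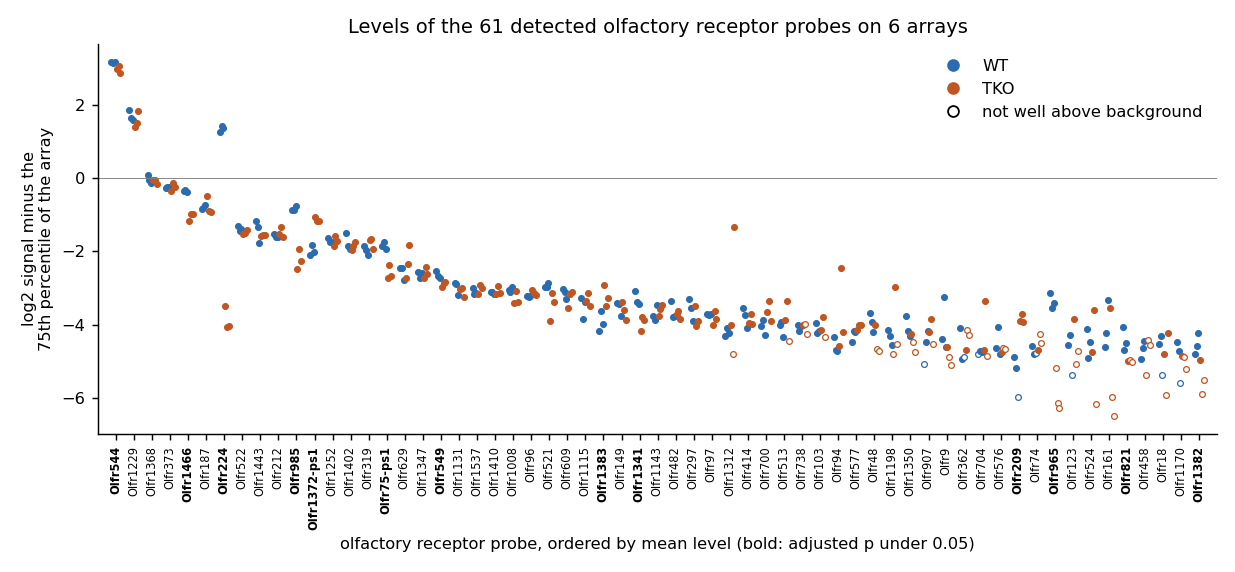
Level of each of the 61 detected olfactory receptor probes on the 6 arrays, as log2 signal minus the 75th percentile of the array, ordered by mean level, with WT in blue and TKO in orange. Open circles are arrays on which the probe was not well above background, and names in bold passed the threshold; 59 of the 61 probes have mean levels under 0, and Olfr224 is the probe whose groups stand farthest apart.

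A smaller share of the members than of all probes passed the threshold. Of all 30730 probes, 57.1% passed the threshold (limma, Benjamini-Hochberg adjusted p under 0.05), 28.7% higher and 28.4% lower in TKO. Of the 61 members, 13 did (21.3%), 3 of them higher in TKO and 10 lower. Of the 38 members detected on all 6 arrays, 9 passed (23.7%), against 59.7% of all probes detected on all 6 arrays. The 3 TKO values all lay on 1 side of the 3 WT values in 17 members (27.9%), against 65.8% of all probes. Changes of at least 2-fold that passed the threshold numbered 4 of 61, against 14.1% of all probes. Median differences were -0.08 over the members and -0.01 over all probes. These counts describe the probes that passed the filter, which used the same arrays, and a probe that passed it through 1 group alone was more likely to differ by that choice.

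The split between rises and falls depended on the centring. Centring each array on its median instead of its 75th percentile moved the median difference of all probes from -0.01 to -0.20 and gave 2 members higher and 20 lower, and quantile normalization gave 2 higher and 16 lower. Testing without a filter on dim probes left 2 higher and 6 lower. The 48 members that did not pass the threshold differed by -1.28 to 0.83, and their error depended on brightness: the median SE was 0.12 for members detected on all 6 arrays and 0.29 for those on 3 to 5. Of the 38 on all 6 arrays, 28 had differences within 0.3 of 0.

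**Figure D3:**
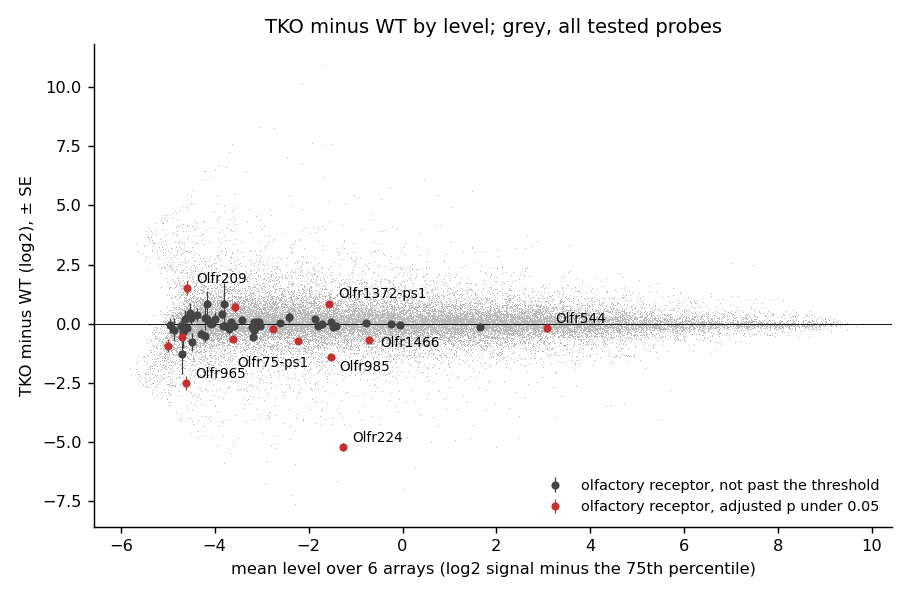
Difference between TKO and WT (log2, ± SE) against mean level over 6 arrays, for the 61 olfactory receptor probes (red where the adjusted p was under 0.05, dark grey otherwise) and all 30730 tested probes (pale grey points). Most receptor probes lie near 0, and Olfr224, at -5.20, lies far below the rest.

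Olfr224, a class II receptor, fell the most. Its levels were 1.25, 1.42 and 1.36 on the WT arrays and -3.49, -4.05 and -4.03 on the TKO arrays. In WT its signal lay above the 75th percentile of every array, and in TKO it was still well above background on all 3 arrays. The difference was -5.20 ± 0.17 (SE), a signal 36.8-fold lower in 3 of 3 TKO samples (adjusted p = 9.53e-06, limma). With normexp background correction the difference was -3.66. The probe is shown because the largest difference of the family rests on it, with the longest run that it shares with a probe of another gene (16 bases, with Runx2) in capitals.
Olfr224: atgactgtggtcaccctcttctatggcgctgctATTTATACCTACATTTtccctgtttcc
The files place it on the minus strand of chromosome 11 in mm9 and list only 5 of its 60 bases there, chr11:58379901-58379905.

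No transcript tested around Olfr224 fell by a like amount. Within 200 kb lay 16 other olfactory receptor probes, of which 13 were detected on 0 arrays. The 1 that could be tested, Olfr319, had levels of -1.84, -1.96 and -2.09 in WT and -1.69, -1.67 and -1.93 in TKO, a difference of 0.20 ± 0.10 (SE; limma adjusted p = 0.141). Of 2 other tested transcripts in that window, Gm12253 differed by -0.43 ± 0.15 (adjusted p = 0.0526), and an unnamed one was lower by a small amount (-0.16 ± 0.04, adjusted p = 0.0148). Chromosome 11 as a whole stood higher in TKO, with a median difference of 0.35 over 2340 tested probes, the highest of the 15 chromosomes that hold members. The window of 300 bases around the start of Olfr224 in RefSeq GRCm38.p6 held 4 CpG dinucleotides.

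Olfr1372-ps1, a transcribed pseudogene also on chromosome 11, rose together with the genes around it. Its levels were -2.11, -1.81 and -2.02 in WT and -1.07, -1.17 and -1.17 in TKO, so the groups did not overlap. The difference was 0.84 ± 0.09 (SE; limma adjusted p = 0.000545), a 1.79-fold rise, and 0.51 with normexp background correction. No other olfactory receptor probe lay within 200 kb of its position, chr11:51968398-51968457 in mm9. Of 10 other transcripts tested there, 9 rose and 0 fell, among them Skp1a, a subunit of SCF ubiquitin ligases (0.87 ± 0.04), Ube2b, a ubiquitin-conjugating enzyme (0.70 ± 0.04), Ppp2ca, the catalytic subunit of protein phosphatase 2A (0.53 ± 0.03), and Tcf7, a transcription factor of the Wnt pathway (0.92 ± 0.05). The part of the shift of the whole chromosome in the rise of Olfr1372-ps1 was not tested.

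**Figure D4:**
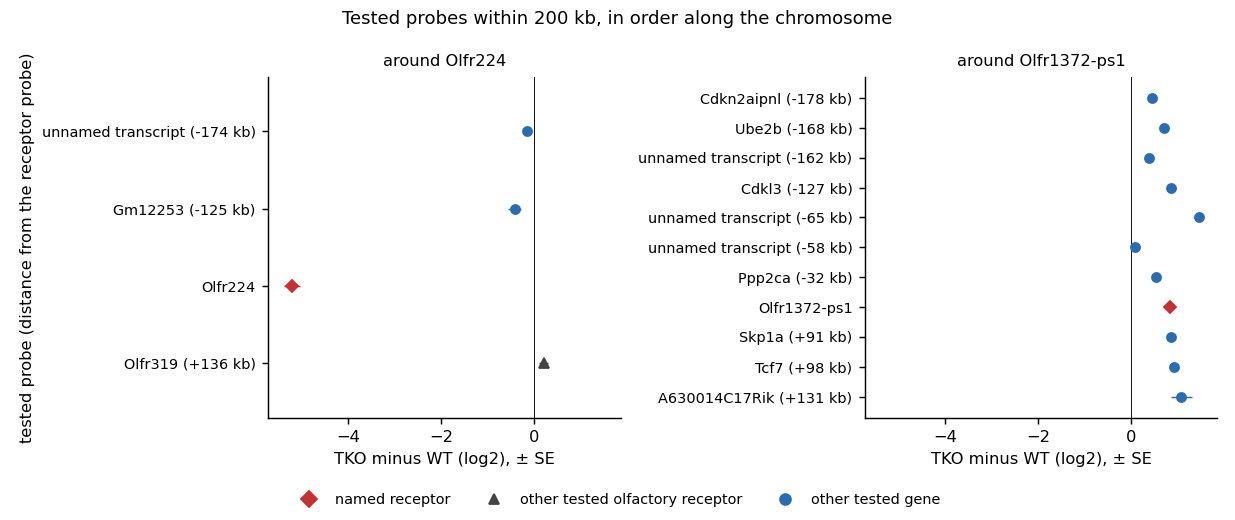
Difference between TKO and WT (log2, ± SE) of each tested probe within 200 kb of Olfr224 (left) and Olfr1372-ps1 (right), in order along chromosome 11 with the distance in kb. Olfr224 stands at -5.20 while its 3 tested neighbours lie between -0.43 and 0.20; Olfr1372-ps1, at 0.84, lies among 9 other transcripts that passed the threshold upward.

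On chromosome 9, Olfr985 fell, and Olfr965 was well above background in WT alone. Olfr985 (chr9:39934609-39934668) had levels of -0.86, -0.87 and -0.77 in WT and -2.49, -1.94 and -2.26 in TKO, a difference of -1.40 ± 0.14 (SE; limma adjusted p = 0.000491) and a signal 2.63-fold lower. None of the 14 other olfactory receptor probes within 200 kb could be tested, and 12 of them were detected on 0 arrays. Of 11 other transcripts tested in that window 2 were higher and 1 was lower, against 28.7% and 28.4% of all probes. The lower one, an unnamed transcript at -74 kb from the Olfr985 probe, differed by -1.28 ± 0.19 (SE; limma adjusted p = 0.00243). It was well above background on only 3 of the 6 arrays, so the size of its change is uncertain. Olfr965 had levels of -3.13, -3.53 and -3.42 in WT and -5.17, -6.14 and -6.27 in TKO, where it was not well above background on any array. The measured difference was -2.50 ± 0.31 (SE; limma adjusted p = 0.00115). This probe passed the filter through the WT arrays alone, so the p is not independent of how it was chosen. The difference was -0.58 with normexp background correction, -1.23 with signals raised to the lowest flagged value of each array, and -1.81 in the first slide row. Its fold is a bound, the WT mean against the higher of the TKO signal and the lowest flagged signal of each array, and on that basis it was at least 2.34-fold higher in WT. The 1 other receptor probe within 200 kb that could be tested, Olfr149, had levels of -3.40, -3.44 and -3.77 in WT and -3.39, -3.61 and -3.88 in TKO and did not pass the threshold (-0.09 ± 0.16, adjusted p = 0.668).

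Olfr1466, Olfr75-ps1 and Olfr1341 fell by smaller amounts. The levels of Olfr1466 (chr19:13416809-13416868) were -0.36, -0.33 and -0.38 in WT and -1.17, -0.99 and -0.99 in TKO, a difference of -0.69 ± 0.06 (SE; adjusted p = 0.000326). Olfr75-ps1 had -1.85, -1.75 and -1.94 in WT and -2.73, -2.37 and -2.66 in TKO, a difference of -0.74 ± 0.11 (adjusted p = 0.00216). In Olfr1341 (chr4:118382849-118382908) the values were -3.07, -3.38 and -3.44 against -4.17, -3.79 and -3.87, a difference of -0.65 ± 0.14 (adjusted p = 0.0111). In each of the 3 every TKO value lay under every WT value. With normexp background correction the differences of Olfr75-ps1 and Olfr1341 were -0.39 and -0.22.

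Olfr209 (chr16:59361245-59361304) was the member with the largest rise. Its levels were -4.88, -5.17 and -5.98 in WT, the last not well above background, and -3.90, -3.70 and -3.93 in TKO. The difference was 1.5 ± 0.29 (SE; limma adjusted p = 0.00653), with WT levels at the limit of detection, so no fold is given. It was 1.16 with signals raised to the lowest flagged value of each array and 0.28 with normexp background correction. Within the first slide row alone, which leaves TKO array 1 as the only TKO sample, the difference was 1.44 and the adjusted p was 0.0889. All 11 other olfactory receptor probes within 200 kb were detected on 0 arrays. Mina, a ribosomal histidine hydroxylase gene in that window, rose by 0.28 ± 0.04 (adjusted p = 0.0016).

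Olfr1383 and Olfr1382, which lie side by side on chromosome 11 (chr11:49338102-49338161 and chr11:49349519-49349578), moved in opposite directions. Olfr1383 had levels of -4.18, -3.62 and -3.99 in WT and -2.91, -3.49 and -3.28 in TKO (0.70 ± 0.20 SE; limma adjusted p = 0.0298). Olfr1382 had -4.81, -4.57 and -4.23 in WT and -4.97, -5.90 and -5.51 in TKO (-0.93 ± 0.27; adjusted p = 0.0308), and of the TKO arrays only array 1 was well above background for it. Both calls were near the threshold. That of Olfr1383 was lost when WT array 1, WT array 3, TKO array 1 or TKO array 3 was left out (adjusted p from 0.0648 to 0.0854). That of Olfr1382 was lost without WT array 2, WT array 3, TKO array 2 or TKO array 3 (0.0637 to 0.0906), and with signals raised to the lowest flagged value of each array its difference was 0.0075. With normexp background correction the differences were 0.25 and -0.23. Around both, the transcript 1700024J04Rik rose by 1.21 (SE 0.17) on the log2 scale, and Scgb3a1, a secreted uteroglobin family protein, fell by 1.97 (SE 0.08). Each of these 2 was well above background on only 4 of the 6 arrays, so the size of its change is uncertain. Cnot6, a deadenylase of the CCR4-NOT complex, was detected on all 6 and rose by 0.37 (SE 0.04).

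The remaining falls were small. Olfr544, at chr7:109632628-109632687, had the highest signal of the receptor probes, with levels of 3.18, 3.15 and 3.17 in WT against 2.98, 3.06 and 2.88 in TKO. The genotypes did not overlap, but the difference was only -0.20 ± 0.06 (SE; limma adjusted p = 0.0281), a signal 1.15-fold lower. It lost its call without WT array 1, 2 or 3, TKO array 1 or TKO array 3 (adjusted p from 0.06 to 0.0787). The other class I receptor that passed, Olfr549, differed by -0.24 ± 0.08 (adjusted p = 0.0387), lost without WT array 1, WT array 2, TKO array 1 or TKO array 2 (0.0759 to 0.0952). Olfr821, on chromosome 10, differed by -0.57 ± 0.17 (adjusted p = 0.0311), lost without WT array 3 or any 1 of the TKO arrays (0.0603 to 0.0791). Olfr821 was well above background on TKO array 1 alone among the TKO arrays. With signals raised to the lowest flagged value of each array, the difference of Olfr821 was -0.12 and did not pass the threshold. With normexp background correction the differences of Olfr549 and Olfr821 were -0.07 and -0.19. Of the receptors with reported roles outside the nose that were looked for (Olfr78, Olfr16, Olfr544, Olfr558 and Olfr1393), Olfr544 alone was a member.

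Bright receptors that did not pass the threshold show how closely the arrays could repeat a value. Olfr373 had levels of -0.28, -0.23 and -0.25 in WT and -0.36, -0.14 and -0.25 in TKO, a difference of 0.00073 ± 0.07 (SE; limma adjusted p = 0.993), which became -0.19 (adjusted p = 0.0441) under median centring, which lowers the difference of every probe. Olfr1368 had 0.10, -0.05 and -0.12 against -0.06, -0.05 and -0.17, a difference of -0.07 ± 0.07 (adjusted p = 0.48). Olfr1229 had 1.86, 1.65 and 1.60 against 1.40, 1.51 and 1.84 (-0.12 ± 0.13; adjusted p = 0.498). In all 3 the genotypes overlapped.

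Some large differences among the dim members came from 1 or 2 arrays. Olfr161 had levels of -4.60, -4.22 and -3.32 in WT, -3.53 on TKO array 1, and -5.98 and -6.49 on TKO arrays 2 and 3, a difference of -1.28 ± 0.84 (SE; limma adjusted p = 0.245) in which TKO array 1 lay within the WT range and both low values were in row 2. Olfr1312 was at -4.32 to -4.10 in WT and at -4.02, -4.79 and -1.33 in TKO, with array 3 alone high. Olfr94 was at -4.71 to -4.33 in WT and at -4.57, -2.45 and -4.20 in TKO, with array 2 alone high. Neither passed the threshold (adjusted p = 0.466 and 0.26).

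Where the gene of a member had another probe on the array, that probe was detected on 1 array at most. Of 95 olfactory receptor gene names with 2 probes, 6 held a member, and 0 had both probes as members. The companion probe was detected on 0 arrays for Olfr1115, Olfr1382, Olfr373, Olfr75-ps1 and Olfr965, and for Olfr629 on TKO array 2 alone. Among the other gene names with 2 probes, 3273 of the 4331 with at least 1 probe kept had both kept (75.6%). The members of Olfr1115 (0.17 ± 0.17 SE; limma adjusted p = 0.434) and Olfr629 (0.27 ± 0.24; adjusted p = 0.388) did not pass the threshold.

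In 2 of these genes the probes overlap on the transcript, so both sequences are given with the bases that they share in capitals. The probes of Olfr373 start 40 bases apart and share 20 bases. The detected one lies at chr8:74624499-74624558 and was well above background on all 6 arrays, and the other lies at chr8:74624539-74624598 and had levels from -7.51 to -6.50.
Olfr373, detected: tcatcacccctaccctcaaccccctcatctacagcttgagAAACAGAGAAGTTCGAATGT
Olfr373, not detected: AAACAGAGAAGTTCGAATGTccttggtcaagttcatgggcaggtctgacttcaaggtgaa
The probes of Olfr965 start 34 bases apart and share 26 bases. The member lies at chr9:39527651-39527710, and its companion, at chr9:39527685-39527744, was detected on 0 arrays, with levels of -7.00, -7.28 and -6.18 in WT and -7.11, -6.19 and -6.28 in TKO.
Olfr965, detected: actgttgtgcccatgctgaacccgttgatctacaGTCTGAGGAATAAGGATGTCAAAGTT
Olfr965, not detected: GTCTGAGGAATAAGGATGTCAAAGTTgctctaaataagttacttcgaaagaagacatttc
The fall of Olfr965 was thus seen by 1 of its 2 probes, and the same holds for the falls of Olfr75-ps1 and Olfr1382. Which probe of a pair follows the receptor's transcript was not tested.

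**Figure D5:**
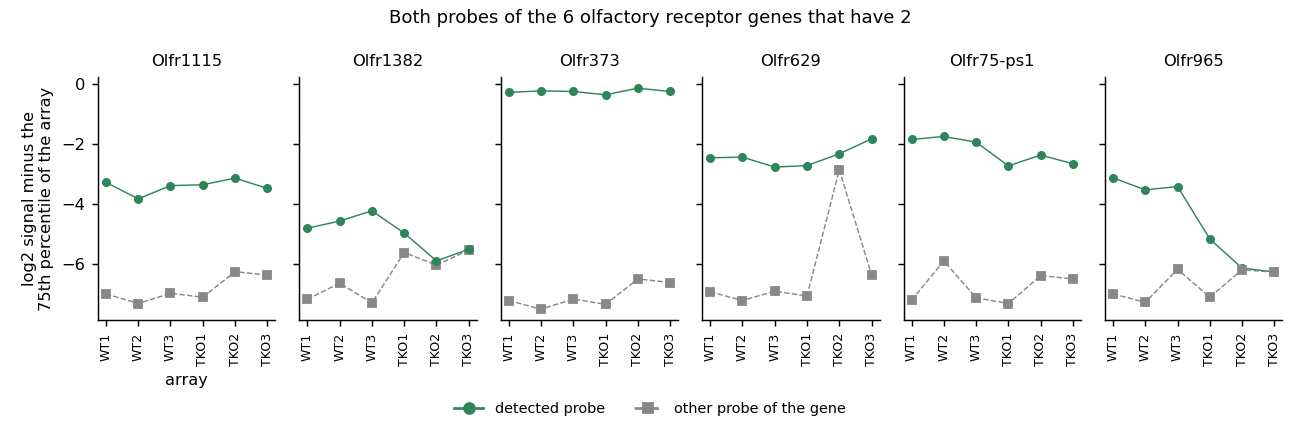
Levels on the 6 arrays (log2 signal minus the 75th percentile of the array) of both probes of the 6 olfactory receptor genes that have 2 probes and hold a member, with the member in green and its companion in grey. The companions of 5 genes were detected on 0 arrays, and that of Olfr629 on TKO array 2 alone.

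Runs shared with probes of other genes on the array were short, and sequence without a probe was not compared. The longest run that a member's probe had in common with a probe of another gene was 12 to 25 bases of 60, and at most 17 bases where the other probe was itself detected on all 6 arrays. Runs of 20 or more bases occurred in 4 members, Olfr965, Olfr75-ps1, Olfr1382 and Olfr907, each shared with another olfactory receptor. The probes of 5 receptors, the falls of Olfr1466 and Olfr1341, the rise of Olfr209 and the bright Olfr1229 and Olfr1368 that did not pass, are shown with the longest shared run in capitals.
Olfr1466: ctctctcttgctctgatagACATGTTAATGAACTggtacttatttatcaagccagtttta
Olfr209: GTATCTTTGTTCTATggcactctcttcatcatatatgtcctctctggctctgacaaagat
Olfr1341: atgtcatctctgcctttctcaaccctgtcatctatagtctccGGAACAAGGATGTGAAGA
Olfr1229: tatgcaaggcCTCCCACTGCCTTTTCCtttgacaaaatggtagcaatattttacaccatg
Olfr1368: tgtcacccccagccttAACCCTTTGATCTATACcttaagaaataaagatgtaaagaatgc
Olfr1341 and Olfr1368 share their runs with other olfactory receptors (Olfr26 and Olfr958), from the conserved end of the coding region, and Olfr1466, Olfr209 and Olfr1229 share theirs with probes for unnamed transcripts.

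The windows around the RefSeq starts of the members were poor in CpG, as were those of other olfactory receptors. Such windows of 300 bases (GRCm38.p6) were found for 49 of the 61. Many RefSeq entries of the members are short, such as 939 bases for Olfr965 and 936 for Olfr1382. Where an entry holds little more than the coding region, its window may lie there and not at the promoter. A comparison with all genes may thus set unlike places side by side. The members' windows held a median of 1 CpG, the same as in 895 other olfactory receptors, against 8 over 27025 genes. Windows with at least 5 CpG made up 10.2% of the members, 3.24% of the other olfactory receptors and 63.5% of all genes. The 11 members with a window that passed the threshold held 0 to 4. The letters TAATTA, the core of homeodomain sites such as those of Lhx2 (a palindrome, so both strands are the same), were in 16.3% of the members' windows, 18.8% of those of other olfactory receptors and 6.12% of all. A match of letters shows no binding.

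Genes of the pathway that serves olfactory receptors in the nose were measured more often than the receptors and changed in both directions. Of 51 tested genes on the lists for signal transduction, trafficking, receptor gene choice and olfactory sensory neurons, counted once each, 18 rose, 22 fell and 11 did not pass, against 29.7% of all gene names higher and 29.9% lower (59.7% in all) with 1 probe per gene. The lists were chosen with earlier results of these data known. Centring on the median left 9 rises, and the first slide row alone left 7.

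The transduction cascade runs from the receptor through the G protein Golf and adenylyl cyclase to a cyclic-nucleotide-gated channel. Against 29.7% of all gene names higher and 29.9% lower, 6 of its 15 tested genes rose, 6 fell and 3 did not pass. Another 3 genes of the cascade were detected on 0 arrays. The genes at its centre did not pass: Gnal, the alpha subunit of Golf (-0.03 ± 0.10 SE; limma adjusted p = 0.799), and Adcy3, the cyclase (0.04 ± 0.09; adjusted p = 0.701). The largest rises were those of Cnga4, a channel subunit with levels of -4.92, -7.59 and -7.24 in WT and -4.21, -3.69 and -3.49 in TKO, Arrb2, a beta-arrestin (0.96 ± 0.08), and Slc12a2, a chloride cotransporter (0.71 ± 0.04). Arrb2 lies on chromosome 11, where the median difference was 0.35 over 2340 tested probes. The part of that shift in its rise was not tested. The largest falls were those of Camk2a (-1.14 ± 0.09), Adrbk2, a receptor kinase (-0.87 ± 0.09), and Ric8b, a chaperone of Golf (-0.61 ± 0.04). The channel subunit Cnga2 had levels of -3.94, -4.38 and -4.20 in WT and -4.66, -4.85 and -4.50 in TKO. It was well above background on 3 WT arrays and 1 TKO array. The measured difference was -0.50 (SE 0.14, limma adjusted p = 0.0279). With signals raised to the lowest flagged value of each array, the list had 5 falls in place of 6.

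Among the chaperones that carry receptors to the cell surface, 5 of 8 tested genes fell and 0 rose, also at an unadjusted p under 0.05, with a median difference of -0.58. Of all gene names, 29.9% were lower in TKO and 29.7% higher. No chaperone rose under the other settings, and the falls numbered 3 to 6. Reep6, a receptor expression-enhancing protein, had levels of 3.13, 3.15 and 3.10 in WT and 2.03, 2.16 and 2.03 in TKO (-1.05 ± 0.05 SE; limma adjusted p = 3.64e-05). Rtp3, a receptor transporter protein, was well above background on the 3 WT arrays and on no TKO array, and was at least 1.56-fold higher in WT. Rtp1, the chaperone most used by olfactory receptors in the nose, was detected on 1 array.

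Among the regulators of receptor gene choice, 7 of 17 tested genes rose, 7 fell and 3 did not pass. Of all gene names, 29.7% were higher in TKO and 29.9% lower. Lhx2, a homeodomain factor that binds olfactory receptor enhancers, had levels of -0.68, -0.48 and -0.49 in WT and -1.89, -2.16 and -2.45 in TKO (-1.62 ± 0.15 SE; limma adjusted p = 0.000382). Atf5, which acts in the feedback that fixes the choice, fell by 1.42 on the log2 scale (SE 0.05), and Ddit3, of the same stress response, by 0.74. Ebf1, of the factors that bind receptor promoters, rose by 1.31 (SE 0.11), and the heterochromatin protein gene Cbx1 by 1.03 (SE 0.04). Both genes lie on chromosome 11, where the median difference was 0.35 over 2340 tested probes. The part of that shift in the rises of Ebf1 and Cbx1 was not tested. Ebf4 rose by 0.63 (SE 0.15). Kdm1a, the demethylase needed for a receptor gene to be switched on, fell by 0.25 (SE 0.04).

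Defining markers of olfactory sensory neurons were absent in part. Of 18 olfactory sensory neuron markers, 13 were tested, 5 of which rose, 5 fell and 3 did not pass. The shares over all gene names were 29.7% higher and 29.9% lower. Ncam2 and Ano2 were detected on 0 arrays, and Rtp1 and Stoml3 on 1 each. Neurog1 was detected on 2 TKO arrays and on 0 WT arrays, and was not tested. Each of its TKO levels lay above each of its WT levels. Omp, the marker of mature sensory neurons, was detected on all 6 arrays, with levels of -1.37, -1.44 and -1.30 in WT and -1.32, -1.25 and -1.19 in TKO (0.12 ± 0.06 SE; limma adjusted p = 0.134). The rises were led by Neurod1 (1.12 ± 0.05) and Nqo1 (1.04 ± 0.09), and the falls by Ncam1 (-1.43 ± 0.05), Stmn3 (-1.28 ± 0.08) and Stmn2 (-0.54 ± 0.04), all of them genes that other cells use too. The summed level of the list, in which bright genes weigh most, was 5.92 to 5.99 in WT and 5.59 to 5.61 in TKO. The brightest gene of the list was Stmn2, at 5.25, 5.23 and 5.28 in WT and 4.76, 4.67 and 4.70 in TKO. That sum therefore does not follow the list as a whole. In bulk RNA, fewer cells of a type and less RNA per cell cannot be told apart.

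Embryonic stem cell markers were detected on every array for 12 of 12 genes, of which 3 rose, 6 fell and 3 did not pass. Over all gene names, with 1 probe per gene, 29.7% were higher in TKO and 29.9% lower (59.7% in all). Zfp42, a marker of naive stem cells, fell by 4.07 on the log2 scale (SE 0.05), Tdgf1, a Nodal co-receptor, by 1.06 and Esrrb, a pluripotency factor, by 0.49. Fgf4 rose by 0.46, Lin28a by 0.29 and Sall4 by 0.18. The summed level was 9.95 to 10 in WT and 9.57 to 9.68 in TKO. Fibroblast genes, listed because the cells had grown on feeders, moved with genotype. Of 13 tested genes 9 rose, 1 fell and 3 did not pass, against the same shares over all gene names. Their summed level was 5.57 to 5.61 in WT and 6.23 to 6.27 in TKO, and Lum was detected on 0 arrays. Acta2 (1.20 ± 0.06 SE), Tagln (0.97 ± 0.04) and Col3a1 (0.66 ± 0.22), for smooth muscle actin, transgelin and a fibrillar collagen, rose the most, and Pdgfrb fell by 2.26. Median centring left 3 of the 9 rises. The part of these markers in the olfactory receptor results was not tested.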

How the data were processed

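RNA of 3 WT and 3 TKO dishes was hybridised to one-colour Agilent arrays of 62976 spots, 0 of them saturated. The deposited files are output of Agilent Feature Extraction 11.5.1.1, per the submitters' processing notes, with processed signal, mean signal and local background as intensity per spot, per the file headers. The spot flags (0 or 1) are deposited too. The authors also deposited a table of log2 values with 55821 rows. For the probes found in both, it matched log2 processed signal minus a constant per array (100% within 0.01). The columns of the deposited table have a 75th percentile of 0 and medians of -4.03 to -3.74. Its scale and centring are not given in the sources used here.

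Control spots and outliers were left out, spots of a probe were averaged as log2 processed signal, and the 75th percentile of the array was subtracted (intensities of 366.7 to 414.2). Probes well above background on at least 3 of 6 arrays, 30730, were tested with limma 3.58.1 (lmFit, eBayes; R 4.3.3), two-sided, with Benjamini-Hochberg adjustment over all of them and a threshold of 0.05; the steps were tested on simulated data. The number of arrays limits the precision. Members, lists and tests were chosen with earlier results of these data known. Named were members past the threshold with separate groups, the 5 brightest, genes with another probe, receptors with reported roles outside the nose, neighbours within 200 kb of the largest changes, and up to 3 rises and 3 falls per list (olfactory signal transduction, receptor trafficking chaperones, receptor gene choice, and markers of olfactory sensory neurons, embryonic stem cells and feeder fibroblasts), by the brightest kept probe of each gene; Olfr161, Olfr1312, Olfr94, Olfr319, Olfr149, Olfr458, Olfr907, Cnga2, Kdm1a and some list genes that did not pass were named after their values were seen, and 2 list genes that the rule would name are not reported here. Alternatives covered background correction, normalization, filters, slide row, replicates and blocks. Positions are mm9, per the file headers, and the windows for CpG counts lie around RefSeq GRCm38.p6 starts.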

Additional observations from a re-analysis of the deposited data

How the results depend on the processing

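Against 3 members higher and 10 lower, the falls numbered 16 with quantile normalization, 20 with centring on the median and 6 without a filter on dim probes; the other settings gave 2 to 4 higher and 7 to 12 lower. Leaving out 1 array at a time gave 2 to 4 higher and 7 to 10 lower. The pathway lists had 18 rises, which became 9 with median centring and 7 in the first array row alone. The difference in the share of olfactory receptor probes detected, 0.615 points, was -9.28 points with the positive and significant flag and -10.4 points with the 95th percentile of negative controls; leaving out 1 array gave 0.224 points (without WT array 3) to 1.23 points (without WT array 2). The cause of these changes was not tested. The difference of Olfr1382 turned to 0.0075 with the signal floor. That of Olfr373, near 0 otherwise, was -0.19 and past the threshold with median centring, and it was also negative, without passing, under several other settings. Olfr629 (-0.165 with the array row as a block and in the first row) and Olfr1115 (-0.0262 with quantile normalization, -0.0217 with median centring) changed sign without passing under any setting.

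The replicate numbers in the labels did not pair the samples (correlations of same-numbered deviations of -0.061, -0.008 and 0.003 over 30730 probes). With the replicate block 3 members were higher and 7 lower, 7 of these 10 shared with the 13 called without it, and the call of Olfr1341 was lost (adjusted p = 0.0518, limma).

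Olfr224, Olfr1466, Olfr985, Olfr1372-ps1 and Olfr75-ps1 kept their calls under all 18 alternatives. Olfr965 passed under the 17 that could test it, but it had entered the filter through WT alone. Normexp background correction made each of the 13 called differences smaller in size. Olfr209 lost its call with the array row as a block (adjusted p = 0.0602) and in the first row alone (0.0889). Olfr544, Olfr821, Olfr549, Olfr1383 and Olfr1382 lost theirs in 9, 9, 8, 8 and 9 alternatives. In the first row alone the spread comes from the WT arrays, and TKO array 1 is assumed to vary like them.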
